A study of Sus scrofa with 32 samples.

Results

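Solute carriers are membrane proteins that move amino acids, sugars, ions, metals, vitamins and metabolic intermediates across cell and organelle membranes, and their gene symbols begin with SLC and a family number. The genes described here are those whose probe sets on a porcine expression array carry exactly 1 symbol of that form, with the brightest probe set over all 32 arrays standing for each gene. Of 6765 genes with a single symbol on the array, 120 had such a symbol, and 113 remained after 7 named exclusions (SLC2A1, SLC2A5, SLC10A1, SLC39A4, SLC39A14, SLC46A1 and SLC25A20). The label holds for 110 of the 113. The other 3, SLC2A4RG, SLC9A3R1 and SLC9A3R2, carry SLC symbols but are regulators named after a carrier: the first encodes a DNA-binding protein and the others encode scaffolds for membrane proteins. The 113 genes have 167 probe sets, and 76 of the genes have only 1.

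The arrays measured total RNA from liver of Pietrain pigs, a meat breed, sampled before birth at 35, 63 or 91 days post conception (dpc). The mothers had received a control diet or a methyl-enriched diet during gestation, the second called the methyl diet here. The feeds differed in methylating micronutrients. Each age had both diets. The middle age has 6 arrays per diet and the first and last ages have 5 per diet. The design text gives offspring of 5 to 6 gilts per stage, so littermates may be among the arrays, and no label names the mother, the litter or the sex of a fetus. P-values therefore measure the spread between these samples, some of which may be related.

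A carrier of the liver cell surface sets which nutrients the cell takes from blood or gives back to it. Several amino acid exchangers, though not all, pair a carrier subunit with a heavy chain, SLC3A2 or SLC3A1, that brings it to the membrane. The SLC25 family links the cytosol with the mitochondrial matrix, and several of its members serve heme and iron metabolism. The SLC35 family supplies the Golgi and endoplasmic reticulum with nucleotide sugars and related substrates for making glycoproteins. Fetal liver is also a site of red blood cell formation, so a sample holds RNA of erythroid cells beside that of hepatocytes. In such bulk samples, fewer cells of a type and less RNA per cell cannot be told apart.

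Values are log2 signals as deposited. An array's 40th percentile over its non-control probe sets, between 2.74 and 2.93, serves as the background level, and a probe set was tested if it lay above that level in at least 5 arrays. The array medians ran from 3.84 to 4.23. The tissue label matched its markers: 12 of 14 hepatocyte genes were on the array, all above background on every array, and the mean of those 12 ran from 13.25 to 14.85 over the arrays. Of 6 markers of neighbouring kidney, adrenal gland and gut, 5 lay at or below background on every array except for STAR on 1 array at 91 dpc, and VIL1 had age means of 6.67 to 7.76. The spike-in controls bioB and bioC split the arrays into 18 with a wide gap between those controls and 14 with a narrow gap, and both sorts occurred in every combination of age and diet. Of the 113 members, 78 passed the filter and 35 did not. Among the 78, 27 had 5 or more arrays at 1 repeated value (within 0.01), so their standard errors rest partly on repeats. Of the 78, 5 (SLC1A1, SLC4A2, SLC16A3, SLC44A4 and SLC46A2) passed through a single age, with fewer than 5 arrays above background at the other ages together, so a difference from that age had to appear and is a description.

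Most tested members differed between ages, and more of them fell than rose. Between 35 and 63 dpc, 49 of 78 members changed (limma, adjusted p under 0.05 over all 15327 probe sets tested), 13 upward and 36 downward, with a median log2 difference of -0.25. Over all probe sets, 60.5% changed in that comparison, 32.5% upward and 28% downward, with a median of 0.05. Between 63 and 91 dpc, 44 members changed, 10 upward and 34 downward, with a median of -0.15, against 58.5% of all probe sets, 29.5% upward and 29% downward. Over the whole span from 35 to 91 dpc, 65 members changed, 14 upward and 51 downward, with a median of -0.51, against 79.9% of all probe sets, 40.8% upward and 39.1% downward. The 3 age comparisons share arrays and are set side by side. The falls counted from 35 to 63 dpc and over the span include SLC4A2, SLC16A3, SLC44A4 and SLC46A2. The rises counted to 91 dpc include SLC1A1. Each of these passed the filter through a single age, so the filter favoured its call beforehand. The shares and the counts by role below include them too. Quantile normalization turned the balance over all probe sets downward, to 28.1% up and 33.9% down, 27.4% and 33.4%, and 36.9% and 45%. Under it the members gave 11 up and 40 down, 10 and 36, and 13 and 53.

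The share of members that changed (62.8%, 56.4% and 83.3%) was thus near that of all probe sets. Their downward share was larger, but a set of named genes, each read at its brightest probe set, leans the same way. Among 5593 such genes, 70.3% changed from 35 to 63 dpc (31.1% rose and 39.2% fell), 63.4% changed from 63 to 91 dpc (22.9% rose and 40.5% fell), and 83.9% changed over the whole span (33.6% rose and 50.2% fell). Those shares come from a separate fit, adjusted over the 5593 genes. The members' shares, from the fit adjusted over 15327 probe sets, were 16.7% and 46.2%, 12.8% and 43.6%, and 17.9% and 65.4%. Their median over the whole span was -0.51 against -0.25 for the named genes. In a smaller set the arrays of the later age lay wholly outside the range of the earlier age. From 35 to 63 dpc this held for 11 members (1 above, 10 below), or 14.1%, against 8.60% of all probe sets (3.61% above, 4.99% below). From 63 to 91 dpc it held for 11 members (3 above, 8 below), against 13% of all probe sets (6.11% above, 6.94% below). Over the whole span it held for 27 members (8 above, 19 below), or 34.6%, against 40% of all probe sets (21.4% above, 18.7% below).

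**Figure D1:**
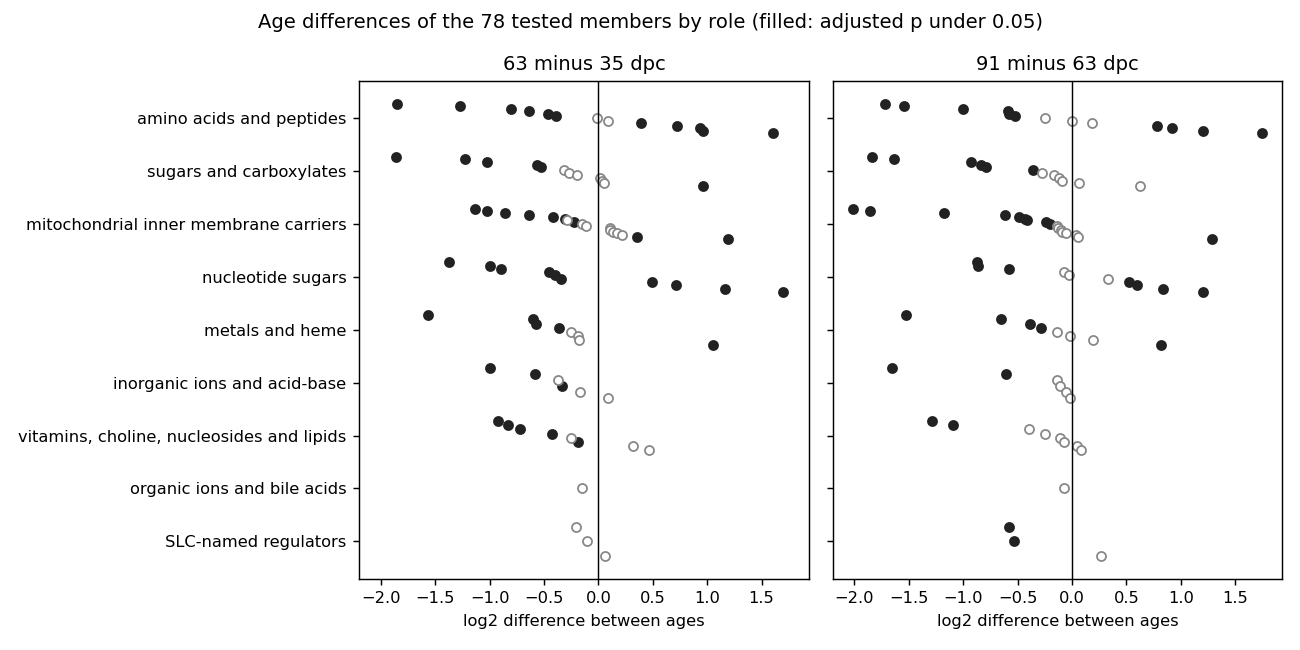
Log2 difference between successive ages for each of the 78 tested members, in rows by role; filled points passed the adjusted p threshold of 0.05. Nucleotide sugar and amino acid carriers have filled points on both sides of 0, whereas all filled points of the ion, vitamin and regulator rows lie below 0.

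Amino acid and peptide carriers moved in both directions. Of 21 such members 13 were tested: 5 rose and 6 fell from 35 to 63 dpc, and 4 rose and 6 fell from 63 to 91 dpc. SLC1A5, the sodium-dependent exchanger of glutamine and other neutral amino acids, had signals of 10.31 at the lowest array, 10.68 at the median and 11.15 at the highest at 35 dpc, then 8.26, 8.84 and 9.68 at 63 dpc, then 6.72, 7.01 and 7.70 at 91 dpc. No array of one age overlapped another age. The falls were 1.85 ± 0.14 (SE; adjusted p = 2.39e-11) and 1.72 ± 0.14 (adjusted p = 4e-11) log2 units, and the level at 35 dpc was 11.9-fold that at 91 dpc.

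SLC7A1 takes up the cationic amino acids arginine and lysine. Its lowest, median and highest signals were 9.97, 10.18 and 10.78 at 35 dpc, 9.03, 9.45 and 9.82 at 63 dpc, then 7.39, 7.92 and 8.27 at 91 dpc. Here too the ages did not overlap, and the later step was the larger of the pair: a difference of -0.81 ± 0.10 (adjusted p = 8.74e-08), then of -1.55 ± 0.10 (adjusted p = 2.35e-13). SLC3A2, the heavy chain shared by several amino acid exchangers, went from 7.81 ± 0.62 (SD, n = 10) to 6.54 ± 0.65 (n = 12) to 5.53 ± 0.38 (n = 10). Its arrays at 35 dpc all lay above those at 91 dpc, while neighbouring ages overlapped. SLC6A8, the creatine carrier, fell by 0.46 and by 0.59.

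The peptide carriers rose. SLC15A2, a proton-coupled carrier of small peptides, read 6.11, 7.30 and 8.57 (lowest, median, highest) at 35 dpc, 8.05, 9.03 and 9.31 at 63 dpc, then 9.17, 9.72 and 9.93 at 91 dpc. The first step was 1.60 ± 0.21 (adjusted p = 1.66e-07) and the second 0.78 ± 0.21 (adjusted p = 0.0018), and the last age lay above the first without overlap. Its other 2 tested probe sets rose by 1.25 and 1.09 in the first step, and in the second had differences of 0.27, which was not called, and 0.43, which was. SLC15A1, the related intestinal peptide carrier, rose by 0.96 ± 0.33 and 0.92 ± 0.33, with wide overlap between neighbouring ages (3.03 to 4.96, 3.20 to 6.18, and 4.84 to 7.31). SLC38A9, a lysosomal sensor of arginine, rose by 0.72 in the first step and differed by 0.19 in the second, which was not called. Its other tested probe set, dimmer at a mean of 3.39, had differences of 0.18 and 0.39, neither of them called.

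The other heavy chain, SLC3A1, rose while its known light chain fell. SLC3A1 read 3.76 ± 0.63 at 35 dpc, 4.69 ± 0.41 at 63 dpc and 5.89 ± 0.42 at 91 dpc, with 1 of 10 arrays at background at the first age. It rose by 0.94 ± 0.21 in the first step. Every array at 91 dpc (5.32 to 6.69) lay above every array at 63 dpc (4.37 to 5.31), and the step was 1.20 ± 0.21 (adjusted p = 1.33e-05). SLC7A9, the light chain that forms the cystine and dibasic amino acid exchanger with it, had means of 7.20, 6.81 and 6.23 and fell by 0.39 and 0.58. SLC7A7, a light chain that pairs with SLC3A2, rose by 0.40 and then fell by 0.53, so that its means of 5.58 and 5.45 at the outer ages differed by 0.13, which was not called.

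SLC1A1, a carrier of glutamate and aspartate, was at or below background in 9 of 10 arrays at 35 dpc and 10 of 12 at 63 dpc, and above it in all 10 arrays at 91 dpc (3.06, 4.16 and 5.54). With each dim array set to background, the level at 91 dpc was at least 2.63-fold that at 63 dpc. Only 3 arrays of the other ages were above background. Of the 5 probe sets of SLC1A1, the brightest alone passed the filter. Of the remaining tested members of this group, SLC1A4, a neutral amino acid carrier, had means of 6.89, 6.88 and 6.88, and SLC38A10 fell by 0.64 in the first step alone.

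**Figure D2:**
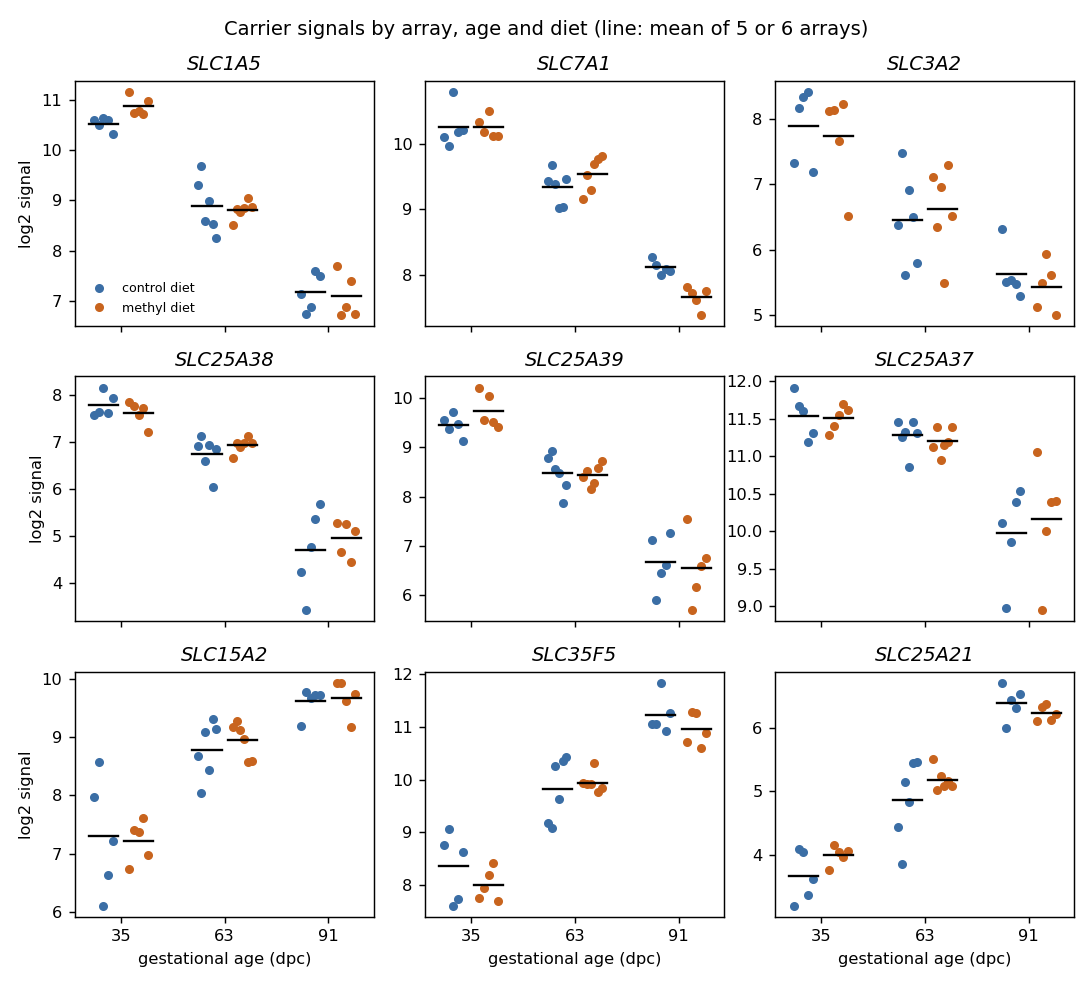
Log2 signal of 9 members on every array, by age in days post conception (dpc) and maternal diet, with a line at each group's mean. The upper 6 members are lowest at 91 dpc and the lower 3 highest, and points of the 2 diets share one range within most ages, the exceptions being SLC1A5 at 35 dpc and SLC7A1 at 91 dpc.

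Of 17 sugar and carboxylate carriers, 12 were tested. From 35 to 63 dpc 1 rose and 5 fell, and from 63 to 91 dpc none rose and 6 fell. SLC2A2, the low-affinity glucose carrier of hepatocytes, was the one that rose: its arrays ran from 4.52 to 7.15 at 35 dpc, from 5.05 to 7.91 at 63 dpc and from 6.76 to 8.80 at 91 dpc. The ages overlapped, and the step of 0.96 ± 0.34 (adjusted p = 0.016) was called while the next, 0.62 ± 0.34 (adjusted p = 0.119), was not.

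The other called glucose carriers fell. SLC2A3, a high-affinity glucose carrier, read 8.22, 8.46 and 9.11 at 35 dpc, 7.52, 7.92 and 8.58 at 63 dpc, then 5.16, 6.21 and 6.70 at 91 dpc. The last age lay below both others without overlap, with a small first step of -0.56 ± 0.16 and a large second one of -1.84 ± 0.16 (adjusted p = 6.42e-11). SLC2A8, an intracellular hexose carrier, fell by 1.23 and then by 1.64, with median arrays of 8.94, 7.84 and 6.11. SLC50A1, a small sugar carrier, fell by 1.03 ± 0.18 in the first step and differed by -0.09 in the second.

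SLC16A13 belongs to the monocarboxylate carriers. At 35 dpc its lowest, median and highest arrays were 8.91, 9.06 and 9.98, at 63 dpc 6.76, 7.30 and 8.24, and at 91 dpc 5.68, 6.59 and 7.16. The first age stood clear of the others, and the first step, -1.86 ± 0.17 (adjusted p = 6.12e-10), was larger than the second, -0.84 ± 0.17. SLC5A6 falls in this group by family number but carries biotin and pantothenate; it differed by -0.27 in the first step, which was not called, and fell by 0.93 ± 0.16 in the second (adjusted p = 1.01e-05). SLC37A4, which brings glucose 6-phosphate into the endoplasmic reticulum for glucose release, had means of 10.93, 10.73 and 10.46, and neither step was called. Over the whole span its difference of -0.47 was called, as was that of its other probe set, -0.57. SLC5A1, a sodium-glucose cotransporter, stayed between 3.06 and 4.21 on every array, with neither step called.

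The SLC25 family gave 20 members and 17 tested. Of these 2 rose and 7 fell in the first step, and 1 rose and 9 fell in the second. Carriers tied to heme and iron were among those that fell, and erythroid markers, whose values are given with the covariate fit, fell over the same steps. SLC25A38 brings glycine into mitochondria for the first reaction of heme synthesis. Its signals were 7.21, 7.68 and 8.15 at 35 dpc, 6.04, 6.92 and 7.13 at 63 dpc, then 3.43, 4.94 and 5.69 at 91 dpc, with no overlap between ages. The differences were -0.86 ± 0.19 (adjusted p = 0.000223) and -2.01 ± 0.19 (adjusted p = 2.73e-10).

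SLC25A39, a mitochondrial glutathione carrier, read 9.13, 9.53 and 10.22 at 35 dpc, 7.88, 8.51 and 8.93 at 63 dpc, then 5.69, 6.59 and 7.54 at 91 dpc. The ages did not overlap, and the steps were -1.14 ± 0.18 and -1.86 ± 0.18 (adjusted p = 2.74e-06 and 4.54e-10). SLC25A37, mitoferrin, imports iron. It read 11.19, 11.57 and 11.91, then 10.86, 11.28 and 11.46, then 8.94, 10.25 and 11.05. Its first difference of -0.29 ± 0.17 was not called, the second of -1.17 ± 0.17 was (adjusted p = 1.26e-06), and the spread over arrays was widest at 91 dpc (SD 0.67 against 0.22 and 0.19). Its other probe set gave -0.17 and -1.65.

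SLC25A21 carries 2-oxoadipate, a product of lysine breakdown, and rose throughout. It read 3.21, 4.01 and 4.16 at 35 dpc, 3.86, 5.12 and 5.51 at 63 dpc, then 6.00, 6.32 and 6.70 at 91 dpc. All arrays at 91 dpc lay above all earlier arrays, and the steps were 1.19 ± 0.15 and 1.29 ± 0.15 (adjusted p = 1.3e-07 and 2.45e-08), a 5.55-fold rise in all.

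The carriers that serve oxidative phosphorylation moved little at their brightest probe sets. SLC25A6, an ADP/ATP carrier, had means of 14.24, 14.13 and 14.03, and SLC25A5, another, 11.74, 11.59 and 11.45. No single step of either was called, but their differences over the whole span, -0.21 and -0.29, were. SLC25A4, the third, rose by 0.35 ± 0.07 in the first step (adjusted p = 0.000117), from arrays between 9.87 and 10.20 to arrays between 10.14 and 10.74. SLC25A3, which imports phosphate, fell by 0.22 and 0.20, each 0.07 SE. Its second probe set (mean 5.96) differed by -0.35 in the first step, which was not called, and by -1.52 in the second, which was (adjusted p = 0.000347). Among carriers of metabolites, SLC25A1, the citrate exporter, fell by 0.42 and 0.41, SLC25A11, the oxoglutarate and malate exchanger, fell by 1.02 and 0.62, and SLC25A12, an aspartate and glutamate exchanger, fell by 0.64 in the first step alone. SLC25A17, which sits in peroxisomes rather than mitochondria, fell by 0.43 in the second step. SLC25A33, a pyrimidine nucleotide carrier, had means of 9.90, 10.12 and 9.99 with neither step called. Its other tested probe set, near background at a mean of 2.45, fell by 0.72 in the first step. In the second it differed by 0.02, which was not called.

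All 10 members of the SLC35 family were tested and all changed from 35 to 63 dpc, 4 upward and 6 downward. From 63 to 91 dpc, 4 rose and 3 fell. SLC35F5, whose substrate is not well defined, read 7.61, 8.07 and 9.07 at 35 dpc, 9.08, 9.91 and 10.43 at 63 dpc, then 10.60, 11.05 and 11.83 at 91 dpc. The 3 ages did not overlap, and the mean rose 7.48-fold over the span, by 1.70 ± 0.18 (adjusted p = 5.79e-09) and by 1.20 ± 0.18 (adjusted p = 1.31e-06). Its second probe set rose by 1.68 and 1.11, and the third and dimmest had differences of 0.77 and 0.40 that were not called.

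Among carriers with known substrates, SLC35A3, which brings UDP-N-acetylglucosamine into the Golgi, rose by 1.16 ± 0.27 and 0.83 ± 0.27. SLC35D2, another carrier of that substrate, rose by 0.71 and 0.52, and SLC35B3, which carries the sulfate donor PAPS, rose by 0.49 and 0.60. Both had arrays at 91 dpc wholly above those at 35 dpc. SLC35B2, which carries PAPS as well, fell by 0.46 and 0.58, from arrays of 7.87 to 8.99 at 35 dpc to arrays of 6.90 to 7.53 at 91 dpc. The pair thus moved in opposite directions.

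SLC35B1, a nucleotide carrier of the endoplasmic reticulum, read 9.12, 9.43 and 9.80 at 35 dpc, 7.999, 8.49 and 9.15 at 63 dpc, then 7.03, 7.61 and 7.92 at 91 dpc. The first pair of ages overlapped through 1 array of each and the second pair did not overlap, with differences of -0.998 ± 0.106 and -0.865 ± 0.106. SLC35A4 fell by 1.37 ± 0.14 and 0.87 ± 0.14; its dimmer probe set fell by 0.47 in the first step and differed by -0.26 in the second. The remaining 3, SLC35C1 and SLC35C2 of the GDP-fucose carrier subfamily and SLC35F6, fell only in the first step, by 0.34, 0.40 and 0.89. At 63 dpc 8 of 12 arrays of SLC35C1 shared 1 value (3.11), and 7 of 12 arrays of SLC35F6 shared another (4.22).

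Of 11 metal carriers, 8 were tested, with 1 rise and 4 falls in each step. SLC41A1, a magnesium carrier, read 5.87, 6.66 and 7.09 at 35 dpc, 3.64, 5.11 and 5.85 at 63 dpc, then 2.74, 3.46 and 4.28 at 91 dpc. The first age lay above both later ones. At 91 dpc 2 of 10 arrays were at background, so the level at 35 dpc was at least 8.49-fold that at 91 dpc. Of its other probe sets, the next brightest pair fell by 0.95 and 1.70 in the first step, and in the second had differences of -0.69, which was called, and -0.36, which was not.

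SLC30A5 moves zinc into the secretory pathway. It rose by 1.05 ± 0.22 and 0.82 ± 0.22, from arrays of 4.47 to 6.74 at 35 dpc to arrays of 7.15 to 8.32 at 91 dpc, without overlap. The zinc importers of the SLC39 family did not rise: SLC39A1, at the cell surface, fell by 0.57 and 0.38, SLC39A7, in the endoplasmic reticulum, fell by 0.36 and 0.29, and SLC39A5 had means of 10.25, 10.07 and 10.05 with neither step called. SLC11A2, an iron importer, differed by -0.19 in the first step, not called, and fell by 0.66 ± 0.13 in the second; a dimmer probe set fell by 0.80 and 1.58. SLC11A1, the phagosomal metal carrier of macrophages, fell by 0.60 in the first step. At 63 dpc 7 of 12 arrays already shared 1 value, 2.84, close to background, which limits the size of that fall. Its second difference of -0.14 was not called, although 7 of 10 arrays were at or below background at 91 dpc. SLC31A1, the copper importer, had means of 8.60, 8.35 and 8.54 with neither step called.

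Of 12 carriers of inorganic ions, 6 were tested. None rose, 3 fell in the first step and 2 in the second. SLC26A6, an anion exchanger, read 8.35, 8.78 and 9.29 at 35 dpc, 7.04, 7.80 and 8.23 at 63 dpc, then 5.18, 6.27 and 6.75 at 91 dpc. The ages did not overlap, and the falls were 0.99 ± 0.17 and 1.66 ± 0.17 (adjusted p = 7.34e-06 and 1.13e-09). SLC8B1, the sodium-calcium exchanger of mitochondria, fell by 0.58 in the first step, and SLC12A4, a potassium-chloride cotransporter, by 0.61 in the second. SLC4A2, an anion exchanger, was at background in 2 of 10 arrays at 35 dpc, 9 of 12 at 63 dpc and 9 of 10 at 91 dpc, and its level at 35 dpc was at least 1.23-fold that at 63 dpc.

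The group of vitamin, choline, nucleoside and lipid carriers had 13 members, of which 8 were tested. None rose in either step, 5 fell in the first and 2 in the second. SLC44A2, a choline carrier-like protein, read 9.10, 9.49 and 9.98 at 35 dpc, 8.24, 8.64 and 8.90 at 63 dpc, then 7.03, 7.60 and 8.14 at 91 dpc. The ages did not overlap. It fell by 0.92 ± 0.12 (adjusted p = 2.73e-07) and 1.09 ± 0.12 (adjusted p = 1.24e-08), and its other probe sets fell by 0.99 and 0.88, then by 1.53 and 1.64.

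SLC29A1, which carries nucleosides across the cell surface, fell by 0.83 ± 0.22 and 1.28 ± 0.22. SLC44A4, of the choline carrier-like family, was above background in 5 of 10 arrays at 35 dpc and in no later array, and its level at 35 dpc was at least 1.17-fold that at 63 dpc. SLC52A2, a riboflavin carrier, fell by 0.42 in the first step (adjusted p = 0.0437) and differed by -0.39 in the second, which was not called. SLC46A2, a relative of the folate carrier, was at background in 5 of 10 arrays at 35 dpc and 9 of 12 at 63 dpc. Its level at 35 dpc was at least 1.06-fold that at 63 dpc, and leaving out any 1 of 12 single arrays ended the call of that difference. SLC33A1, an acetyl-CoA carrier, had differences of 0.47 and 0.08 that were not called, while another of its probe sets, of nearly the same mean signal, rose by 1.15 and 1.18. Over the whole span the difference of 0.55 at its brightest probe set was called.

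Of 5 carriers of organic ions, only SLC22A6, an organic anion carrier, was tested, and neither step was called. Its difference over the whole span, -0.22, was called, with 9 of 10 arrays at or below background at 91 dpc. Of the 3 regulators, SLC2A4RG fell by 0.58 and SLC9A3R1 by 0.53 in the second step, and none was called in the first. The 35 members that did not pass the filter had mean signals of 2.20 to 2.50, and 4 of them (SLC2A12, SLC36A2, SLC6A14 and SLC8A1) stood at the lowest value of the table on every array. They include the organic ion carriers SLC22A2, SLC22A3, SLC22A5 and SLC22A8, the glutamate carriers SLC1A2, SLC1A3 and SLC1A6, the fatty acid carriers SLC27A1 and SLC27A6, the insulin-responsive glucose carrier SLC2A4 and the serotonin carrier SLC6A4. Their differences between ages or diets were not tested here, and the counts above cover only members that passed.

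A list of 56 other membrane transport genes, with 26 tested, did not lean downward. It holds ABC carriers, aquaporins, pumps and SLCO organic anion carriers, and also partner and receptor proteins such as BSG and TFRC, the second of which is an erythroid marker too. In that list 10 rose and 6 fell from 35 to 63 dpc, 9 rose and 7 fell from 63 to 91 dpc, and 13 rose and 8 fell over the span, with a median of 0.17 against -0.51 for the SLC members. The bile salt export pump ABCB11 rose by 2.83 and 2.46, and the aquaglyceroporin AQP3 fell by 2.99 and 3.02. The difference between the lists was not tested.

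Erythroid markers fell over the same ages. Of 28 such genes 13 were measured, none of them an SLC gene: 10 fell and 1 rose from 35 to 63 dpc, and 11 fell and 1 rose from 63 to 91 dpc, with medians of -0.64 and -1.64. Their mean level ran from 11.28 to 11.92 at 35 dpc, from 10.87 to 11.42 at 63 dpc and from 8.95 to 10.08 at 91 dpc, and the logarithm of their summed signal ran over 16.50 to 16.99, 16.06 to 16.46 and 14.05 to 15.45. KLF1, an erythroid transcription factor, fell by 1.27 and 2.23, and EPOR, the erythropoietin receptor, by 0.93 and 2.38, while HBB rose by 1.34 and 0.68. Over these ages 8 of 12 hepatocyte markers rose and none fell, then 6 rose and 3 fell; 6 of 6 granulocyte markers rose, then all 6 fell; and of 6 macrophage markers 1 rose and 1 fell, then 5 rose and 1 fell.

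With the mean erythroid level of each array as a covariate, 45 members were called from 35 to 63 dpc, 5 from 63 to 91 dpc and 27 over the span, in place of 49, 44 and 65. Of all probe sets, 50.2%, 5.24% and 29.1% were called in that fit. The covariate itself differed with age, and the median standard error grew from 0.14 to 0.19, from 0.14 to 0.40 and from 0.15 to 0.52. The 5 still called from 63 to 91 dpc were SLC7A1, SLC5A6, SLC35B1, SLC35B2 and SLC25A17, all lower. SLC7A1 had -1.64 ± 0.29 with the covariate (adjusted p = 0.00187), against -1.55 without it. SLC25A38 had -1.26 ± 0.52, SLC25A39 had -0.67 ± 0.45 and SLC1A5 had -0.73 ± 0.37, none of them called. SLC25A37 turned from -1.17 to 0.26 ± 0.42 (adjusted p = 0.744). Of the 44 members called without the covariate, 4 had the opposite sign with it: SLC1A1, SLC15A1, SLC25A37 and SLC5A10. Over the whole span 6 of 65 did: SLC1A1, SLC15A1, SLC22A6, SLC25A4, SLC25A37 and SLC33A1. From 35 to 63 dpc SLC25A38, SLC25A39 and SLC1A5 stayed called with the covariate, at -0.62, -0.75 and -1.53. Over the whole span SLC25A38 (-1.88) and SLC1A5 (-2.25) stayed called, and SLC25A39 (-1.42) did not. What part erythroid cells have in the differences that lost the call cannot be told apart from age in these samples.

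**Figure D3:**
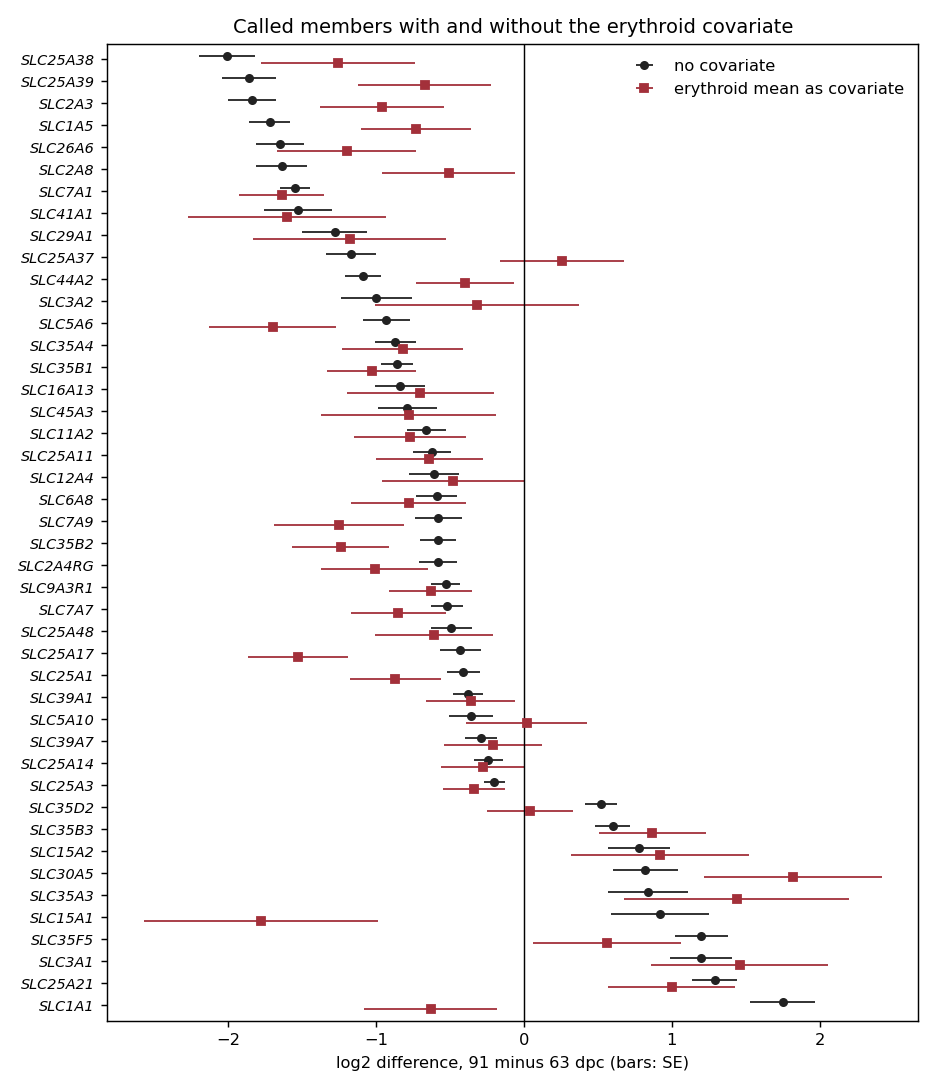
Log2 difference from 63 to 91 dpc (bars: standard error) for the 44 members called in that comparison, from the fit without a covariate (circles) and with the mean level of 13 erythroid markers as a covariate (squares). The bars with the covariate are longer, and SLC1A1, SLC15A1, SLC25A37 and, by a value close to 0, SLC5A10 lie on opposite sides of 0 in the 2 fits.

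The age differences of the called members were also read within each side of the spike-in split. Of the 49 members called from 35 to 63 dpc, 48 had the same sign within the wide-gap and the narrow-gap arrays, the exception being SLC46A2 (-0.35 and 0.03). All 44 called from 63 to 91 dpc and all 65 called over the span had the same sign within both.

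Maternal diet, the question of the study, gave no called member. In limma 0 of 78 members passed at 35 dpc, at 63 dpc, at 91 dpc, averaged over ages, or in the test of whether the diet difference changed with age. Over all probe sets, 0.0391%, 0%, 0.0718%, 0% and 0% passed. At an unadjusted p under 0.05 there were 5, 1, 5, 5 and 7 members, or 6.41%, 1.28%, 6.41%, 6.41% and 8.97%, against 6.09%, 1.43%, 6.52%, 4.47% and 4.31% of all probe sets. The differences of the 78 members (methyl minus control) ran from -0.50 to 0.62 at 35 dpc, -0.52 to 0.58 at 63 dpc and -0.79 to 0.34 at 91 dpc, with median standard errors of 0.21, 0.19 and 0.21. Differences of that size are not shown to be absent by these tests.

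The members of smallest p at each age are given by their arrays. The exact permutation p-values beside them are two-sided and unadjusted, and these members were picked by p from 78, so the values are not independent of that choice. SLC7A1 at 91 dpc read 8.27, 8.16, 8.01, 8.09 and 8.07 in the 5 control arrays and 7.82, 7.72, 7.62, 7.39 and 7.76 in the 5 methyl arrays. All 5 methyl arrays lay below all 5 control arrays. The difference was -0.45 (exact permutation p = 0.00794, the smallest this design allows; limma adjusted p = 0.448), and it was -0.38 and -0.56 within the wide-gap and narrow-gap arrays. At 35 and 63 dpc its diet groups overlapped, and at 63 dpc they differed by 0.20 ± 0.14 in the other direction (unadjusted p = 0.141).

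SLC33A1 at 91 dpc read 7.61, 8.10, 8.11, 7.48 and 7.40 in control arrays and 6.81, 7.68, 7.03, 6.34 and 6.91 in methyl arrays. Of the methyl arrays 4 lay below all controls and 1 among them, and the difference was -0.79 (exact permutation p = 0.0317; adjusted p = 0.571). The scaffold SLC9A3R2 at 91 dpc averaged 7.74 ± 0.55 (SD, n = 5) in control and 7.14 ± 0.51 (n = 5) in methyl arrays, with overlap (exact permutation p = 0.103). SLC5A6, the biotin and pantothenate carrier, read 6.68, 6.68, 6.68, 7.46 and 6.46 in control arrays at 35 dpc and 7.80, 7.53, 7.49, 7.14 and 7.11 in methyl arrays. Of the control arrays 4 lay below all methyl arrays and 1 among them, a difference of 0.62 (exact permutation p = 0.0238; adjusted p = 0.694), which was 0.86 and 0.27 within the wide-gap and narrow-gap arrays.

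SLC25A33 at 63 dpc ran over 9.65, 9.94 and 10.12 (lowest, median, highest) in 6 control arrays and 9.90, 10.38 and 10.44 in 6 methyl arrays. Of the methyl arrays 5 lay above all controls, and the difference was 0.36 (exact permutation p = 0.0152; adjusted p = 1.0). SLC26A6 at 63 dpc averaged 7.56 ± 0.36 (n = 6) in control and 7.94 ± 0.18 (n = 6) in methyl arrays, with overlap (exact permutation p = 0.0368), and SLC5A1 averaged 3.46 ± 0.09 and 3.76 ± 0.42 (exact permutation p = 0.132). SLC46A2 and the sodium-proton exchanger SLC9A5 at 35 dpc lay lower in methyl arrays, at 2.67 ± 0.09 against 3.09 ± 0.31 and 3.42 ± 0.00 against 3.88 ± 0.45 (n = 5 each; exact permutation p = 0.0476 for both). Nearly all methyl arrays of these genes share 1 repeated low value, 2.62 and 3.42. SLC46A2 passed the filter through 35 dpc alone, with 5 arrays above background there, and its repeated methyl value of 2.62 is below background. The filter may thus have favoured a lower level in methyl arrays, so its diet difference at 35 dpc is a description. SLC6A8 was among the smallest p over all ages, with an average difference of 0.26 ± 0.11 (adjusted p = 0.999).

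The diets did not overlap for 1 tested member at 35 dpc, none at 63 dpc and 1 at 91 dpc (1.28%, 0% and 1.28%), against 0.313%, 0.0848% and 0.744% of all probe sets. The member at 91 dpc was SLC7A1. The one at 35 dpc, named after its values were seen, was SLC1A5, with control arrays of 10.59, 10.49, 10.64, 10.61 and 10.31 and methyl arrays of 11.15, 10.74, 10.78, 10.73 and 10.97. Its difference was 0.35 ± 0.21 (SE; limma adjusted p = 0.902), with overlap at the later ages.

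**Figure D4:**
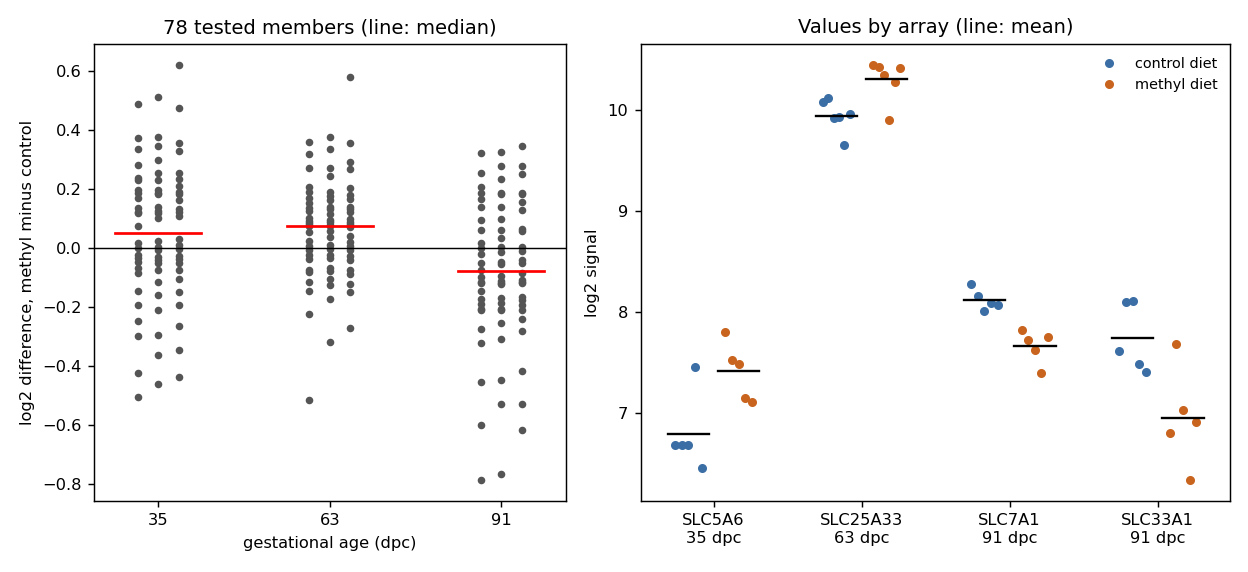
Left: log2 difference, methyl minus control diet, of each of the 78 tested members at each age, with a red line at the median (0.05, 0.08 and -0.08). Right: log2 signal on each array for 4 members, each at 1 age, with lines at the group means; the 5 methyl arrays of SLC7A1 lie below its 5 control arrays.

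Carriers of the nutrients behind methylation were few among the members. SLC44A2, of the choline carrier-like family, averaged 9.47 ± 0.23 in control and 9.59 ± 0.30 in methyl arrays at 35 dpc (n = 5 each), 8.62 ± 0.23 and 8.59 ± 0.21 at 63 dpc (n = 6 each), and 7.50 ± 0.28 and 7.52 ± 0.43 at 91 dpc (n = 5 each). The diets overlapped at every age, with differences of 0.12 ± 0.18, -0.04 ± 0.17 and 0.02 ± 0.18 (SE). SLC52A2, the riboflavin carrier, had differences of 0.37 ± 0.27, 0.27 ± 0.24 and -0.17 ± 0.27, none called. The folate carriers SLC19A1 and SLC25A32, the choline carrier SLC44A1 and the mitochondrial S-adenosylmethionine carrier SLC25A26 were looked for by name and were not among the members.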

How the data were processed

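Biotin-labelled RNA of 32 fetal liver samples was hybridised to Affymetrix porcine arrays. The values were used as deposited, 1 log2 value per probe set and array; GCOS 1.1.1 appears in the submitters' processing notes, with no role stated. The normalization is not given in the sources used here. Depth does not apply to arrays; the number of arrays limits the precision.

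Probe sets were named through GEO's platform annotation. Of 24123 probe sets, 124 controls were set aside, and 15327 above their array's 40th percentile in at least 5 arrays were tested. In R 4.3.3, limma 3.58.1 fitted 1 mean per combination of diet and age (26 residual degrees of freedom, intensity trend), with Benjamini-Hochberg adjustment over all probe sets tested and a threshold of 0.05. "Called", "rose" and "fell" mean an adjusted p under 0.05. The fit was tested on simulated data. Roles were set by SLC family number. Members to name were the 10 largest called differences each way per age comparison, up to 4 per role, the 10 of highest mean signal, the smallest p per diet comparison and a list looked at by name; other members were named to complete a role after their values were seen. The members and lists were chosen with earlier results of these data known. Alternatives were another filter, normalization, array weights, other probe set rules, the spike-in split, an erythroid covariate and leaving out each array. Sequences and coordinates were not used here.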

Additional observations from a re-analysis of the deposited data

Results flagged for a closer look

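The 9 members named for diet were checked for an array far from the others of its group, in 54 groups of 5 or 6 arrays, and 13 groups held one. Chance alone marks about 1 group in 20 where values vary freely, and many of these groups hold repeated values, so small gaps count. Of the 13, 8 concern SLC46A2 and SLC9A5, whose arrays mostly share 1 low value (2.62 and 3.42). For SLC46A2 the far arrays read 2.83 (methyl, 35 dpc), 3.04 (control, 63 dpc), 2.69 (methyl, 63 dpc), 2.20 (control, 91 dpc) and 2.57 (methyl, 91 dpc). For SLC9A5 they read 3.43 (methyl, 35 dpc), 4.07 (control, 63 dpc) and 3.36 (methyl, 91 dpc).

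The others lay above those low values. SLC5A6 had a control array of 7.46 at 35 dpc, the nearest of the others being at 6.68. SLC25A33 had a methyl array of 9.90 at 63 dpc against 10.27, and SLC33A1 a methyl array of 6.41 at 63 dpc against 7.37. SLC5A1 had control arrays of 3.77 at 35 dpc and 3.63 at 63 dpc, against 3.45 and 3.46.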

How the results depend on the processing

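The counts of called members stayed within 1.5 times their main value under the other filters, array weights, quantile normalization, both probe set rules, no intensity trend, the spike-in split as a block and the wide-gap arrays alone. In the 14 narrow-gap arrays alone, 30 members were called from 35 to 63 dpc and 28 from 63 to 91 dpc. With the erythroid covariate 5 were called from 63 to 91 dpc and 27 from 35 to 91 dpc; its standard errors were larger. Leaving out 1 array at a time gave 46 to 53, 41 to 46 and 62 to 67 calls for the 3 age comparisons. For diet it gave 0 to 1 at 35 dpc and 0 to 0 in the other diet comparisons. Without control array 4 at 35 dpc, SLC46A2 was called lower in methyl arrays (-0.54, limma adjusted p = 0.0237). SLC46A2 passed the filter through 35 dpc alone, so that call is a description. With the covariate, signs of called members turned for SLC1A1 (-0.63 from 63 to 91 dpc, -1.31 from 35 to 91 dpc), SLC15A1 (-1.78 and -1.71), SLC25A37 (0.26 and 0.44) and, in 1 comparison each, SLC5A10 (0.02 from 63 to 91 dpc), then SLC25A4 (-0.11), SLC33A1 (-0.40) and SLC22A6 (0.29) over the span. SLC46A2 turned to 0.03 from 35 to 63 dpc in the narrow-gap arrays alone, and SLC25A33 to -0.25 when all its probe sets were averaged. Array weights moved SLC2A2 and SLC15A1 from 35 to 63 dpc to adjusted p = 0.0501 and 0.0505, and called SLC25A5 lower from 63 to 91 dpc (-0.18, adjusted p = 0.0323). The causes were not tested. Quantile normalization moved the median of all probe sets from 0.005 to -0.152 over the whole span, and turned its balance of calls downward. No paired or litter-based analysis was possible because no label names the mother or the litter. Where arrays lie near background, only a lower bound of a rise or fall can be given.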
